A study of Mus musculus with 59 samples.

Results

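The genes described here are the nuclear genes of mitochondrial complex I and of its assembly, taken as every row of the deposited table whose symbol begins with Nduf followed by the subunit letters (a, ab, b, c, s, v or af) and a number. The rule found 45 of the 47643 rows, and no row was left out for a pseudogene suffix. Of these, 36 encode subunits of the holoenzyme, namely 7 core subunits, 9 accessory subunits of the matrix arm, 9 of the proximal membrane arm and 11 of the distal membrane arm. The other members are 7 assembly factors (Ndufaf1 to Ndufaf7), which build the enzyme without remaining in it, together with 2 genes that carry the name but lie outside the holoenzyme (Ndufa4 and Ndufa4l2). The eighth assembly factor of this name, Ndufaf8, stands in the table as 1810043H04Rik and was therefore not a member. All 45 genes passed the filter on low values in every fit.

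Complex I, or NADH:ubiquinone oxidoreductase, is the entry point of electrons from NADH into the respiratory chain and pumps protons across the inner mitochondrial membrane. Its core subunits carry the flavin and the iron-sulfur clusters, its accessory subunits surround and stabilise them, and the membrane arm also contains subunits encoded by the mitochondrial genome, so that both genomes must be expressed for the enzyme to form. Skeletal muscle is rich in it, and assembly factors join the modules of the enzyme step by step.

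The study examined muscle wasting caused by melanoma and the secreted protein Fibcd1. RNA-seq was done on 59 muscle samples from female NCI Ath/nude mice of 4 months, an athymic strain that lacks mature T cells, so any immune contribution is that of a T-cell-deficient host. Every mouse carried a human melanoma xenograft, either a cachectic (CAC) one, which causes muscle loss, or a non-cachectic (NONCAC) one, and no tumor-free mice were analysed here. Since the cachectic and non-cachectic groups bore different xenografts, cachexia and other properties of the tumors cannot be told apart. By the labels, diaphragm came from 10 cachectic and 9 non-cachectic mock-treated mice and from 10 cachectic and 10 non-cachectic mice given recombinant Fibcd1 (rFibcd1). For both cachectic diaphragm groups the paper's figure of these data gives fewer mice, and which libraries it used is not stated. Tibialis anterior (TA, a fast limb muscle) and soleus (SOL, a slow limb muscle) came from 5 cachectic and 5 non-cachectic mice each, with no rFibcd1 named in their labels. Samples are called biological replicates in the labels, but a column of the table could be tied only to its group, not to a numbered replicate.

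The values were TPM (transcript abundance per transcript length, scaled to a fixed total), which sum to the same total in each library and hold no sequencing depth. Between 16436 and 19456 genes were above 0 per library. Muscle labels fitted the fiber markers: the summed TPM of 5 slow-fiber genes averaged 23869.5 in non-cachectic soleus, 2059 in mock diaphragm and 13.4 in tibialis anterior. The sum of 5 melanocyte markers reached at most 2.40 TPM in any library. The sum of 5 liver markers had a median of 19.5 TPM over all libraries but was far higher in some diaphragm libraries. It was 9071 TPM in number 64 of the non-cachectic mock, 2224 TPM in number 32 of the cachectic mock and 1480 TPM in number 3 of the cachectic rFibcd1 group. One cachectic rFibcd1 diaphragm library (number 11 of its column name) stood apart, with a holoenzyme sum of 18523 TPM against at most 13612 in the other 9 of its group, and the highest fast-fiber sum of that group at 63249. One cachectic tibialis anterior library (number 8) held 25.1% of its TPM in mitochondrially encoded genes, against 38.9% or more in the other 4.

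Members differed widely in level (TPM is a measure per transcript length, so levels of different genes can be set side by side). Averaged over the 59 libraries, the holoenzyme subunits ran from 33.0 TPM for Ndufb2 to 1227 TPM for Ndufb9, both of the distal membrane arm. Core subunits lay closer together, with 219 TPM for Ndufs3, 238 TPM for Ndufs1 and 389 TPM for Ndufv1. Levels of the 7 assembly factors were far lower, from 15.1 TPM (Ndufaf6) to 40.4 TPM (Ndufaf1). Outside the holoenzyme, Ndufa4, now counted as a subunit of complex IV, stood at 697 TPM, and its paralog Ndufa4l2 at 14.7 TPM. The lowest value of any member in any library was 5.50 TPM, for Ndufa4l2 in a tibialis anterior.

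**Figure D1:**
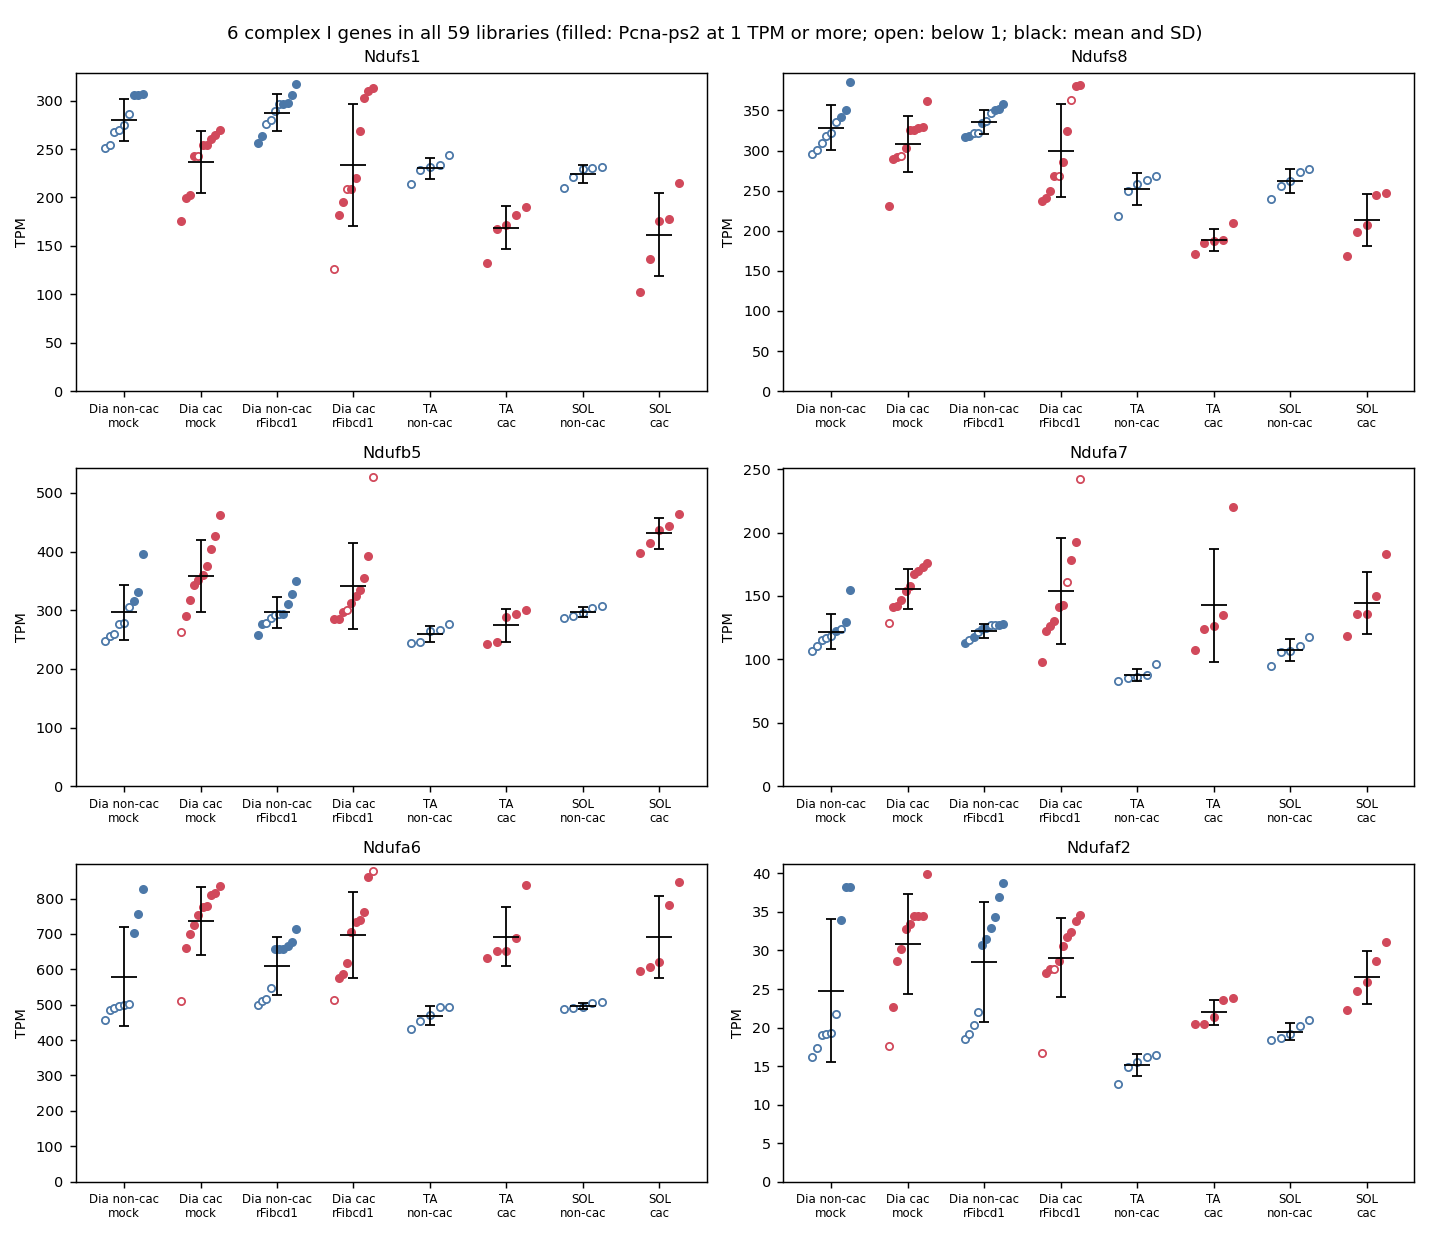
TPM (linear axis from 0) of 6 complex I genes in each of the 59 libraries, by group (blue, non-cachectic; red, cachectic; black, mean and SD; filled points, libraries with Pcna-ps2 at 1 TPM or more, open points, below 1). Ndufs1 was lower in all 5 cachectic than in all 5 non-cachectic tibialis anterior libraries, Ndufb5 was higher in all 5 cachectic soleus libraries, and Ndufaf2 in the non-cachectic mock diaphragm fell into 3 libraries at 34.0 TPM or more and 6 at 21.7 TPM or below.

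How much of the transcript pool complex I genes took is described here by genome and melanoma, without a test. The summed TPM of the 36 nuclear subunits was 12694 ± 975 (SD, n = 10) in cachectic and 11886 ± 1015 (n = 9) in non-cachectic mock diaphragm. With rFibcd1 it was 12362 ± 2424 and 12160.5 ± 609 (n = 10 each). In tibialis anterior it was 9849.7 ± 325 and 9758 ± 413 (n = 5 each), in soleus 10614 ± 1139 and 10689.5 ± 308 (n = 5 each), and each pair of groups overlapped. The 7 mitochondrially encoded subunits summed to 97744 and 122827 TPM in mock diaphragm, 117800 and 140177 in tibialis anterior, and 81721 and 110989 in soleus (cachectic first). In each of these 3 muscles every cachectic library lay below every non-cachectic one in that sum. With rFibcd1 the diaphragm sums were 93999 (51662 to 122049) and 113523 (100526 to 132612) TPM, and the groups overlapped. This sum also divided along the split by Pcna-ps2 described below. In non-cachectic mock diaphragm the high side was at 109863 to 119449 TPM and the low side at 120422 to 135010 TPM. In non-cachectic rFibcd1 diaphragm the sides were at 100526 to 111777 and 115518 to 132612 TPM (high side first). In the cachectic diaphragm groups the sides overlapped, and the part of the split was not tested. The share of all TPM that came from the mitochondrial genome averaged 38.1% and 47.5% in mock diaphragm, 37.6% and 43.9% with rFibcd1, 38.8% and 48.5% in tibialis anterior, and 30.5% and 41.1% in soleus. The median log2 difference of all genes tested, cachectic minus non-cachectic, was 0.20 in mock diaphragm, 0.08 with rFibcd1, 0.41 in tibialis anterior and 0.09 in soleus. With TPM rescaled to leave out mitochondrially encoded genes these medians were 0.0038, -0.04, 0.22 and -0.12. As a share of the TPM of nuclear genes, the 36 subunits took 2.05 ± 0.176% against 2.26 ± 0.124% in mock diaphragm, 1.63 ± 0.159% against 1.90 ± 0.136% in tibialis anterior and 1.54 ± 0.228% against 1.82 ± 0.0879% in soleus. In rFibcd1 diaphragm the share was 1.99 ± 0.354% against 2.17 ± 0.141%, and the ranges overlapped in every pair. Counts and most differences are given as deposited and after median-ratio scaling, which sets the median gene ratio of the libraries equal and brings the median of all genes to within 0.04 of 0. Fewer fibers or cells of a kind and less RNA in each of them cannot be told apart in these bulk samples.

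**Figure D2:**
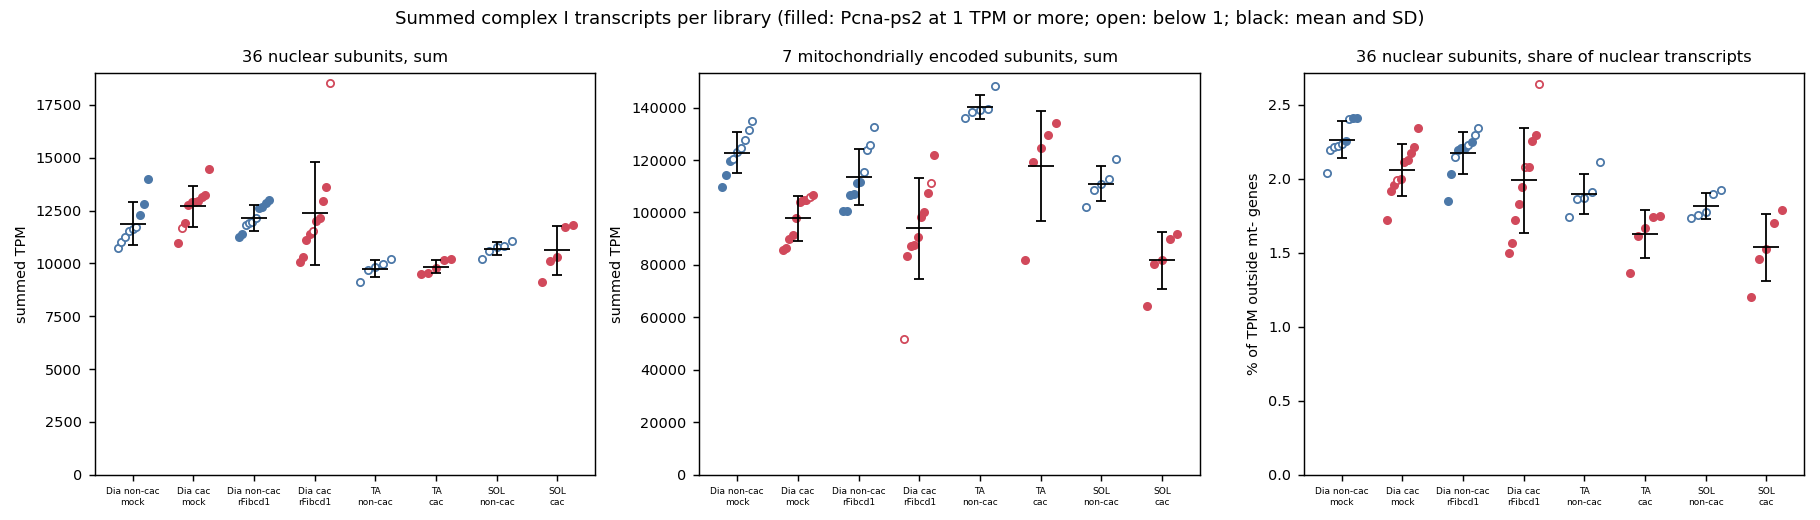
Summed TPM of the 36 nuclear subunits (left), summed TPM of the 7 mitochondrially encoded subunits (middle) and the nuclear subunits as a percentage of the TPM outside mitochondrially encoded genes (right), 1 point per library, by group (blue, non-cachectic; red, cachectic; black, mean and SD; axes from 0). The nuclear sum overlapped between cachectic and non-cachectic groups in every muscle, with means of 9849.7 and 9758 TPM in tibialis anterior, whereas the mitochondrial sum had means of 117800 and 140177 TPM there.

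In the mock-treated diaphragm, the comparison that asks what the cachectic melanoma did without rFibcd1, 3 accessory subunits rose and none of the 45 genes fell, whereas 33.5% of all genes tested were called and 30.9% were called higher. These were Ndufa6, a matrix-arm subunit of the LYR protein family that binds the mitochondrial acyl carrier protein, Ndufa7, another small matrix-arm subunit, and Ndufb5 of the distal membrane arm. Ndufa6 ranged over 510.2 to 834 (median 765) TPM in 10 cachectic and 456 to 826 (median 500.2) TPM in 9 non-cachectic libraries, a log2 difference of 0.37 ± 0.11 (SE; adjusted p = 0.0129, limma with Benjamini-Hochberg adjustment over all genes). Ndufa7 ranged over 128 to 176 (median 156) against 106 to 154 (median 118) TPM, with a difference of 0.35 ± 0.10 (adjusted p = 0.00774, limma). For Ndufb5 the ranges were 262 to 463 (median 356) and 248 to 396 (median 279) TPM and the difference 0.27 ± 0.10 (adjusted p = 0.0369, limma). The cachectic libraries lay higher on average for all 3 genes, and the groups overlapped for each. The call of Ndufb5 was lost without any one of 9 (numbers 8, 9, 32 and 34 of the cachectic and 61 to 65 of the non-cachectic group; adjusted p from 0.0564 to 0.0849). None of the 3 was called after median-ratio scaling, where their differences were 0.14, 0.12 and 0.04, and in the libraries of high Pcna-ps2 treated below Ndufa6 differed by -0.00014 as deposited. With Pcna-ps2 as a term in the fit, as deposited, 1 member was higher and 2 lower, where 15.3% of all genes were called. Ndufa7 was the 1 call shared (0.36, adjusted p = 0.0256). Ndufa6 (0.14, adjusted p = 0.328) and Ndufb5 (0.20, adjusted p = 0.222) were not called, and Ndufs1 (-0.36, adjusted p = 0.0314) and Ndufaf1 (-0.31, adjusted p = 0.0392) were lower. The count of called members ran from 2 to 8 over fits without single libraries, 8 without number 11 of the cachectic rFibcd1 group (41.4% of all genes). It was 11, all lower, with TPM rescaled to leave out mitochondrially encoded genes (14.1%), 18 (17 higher) with array weights (54.7%), 7 by the Dunn test (40.5%), 7 with only the groups compared (50.1%) and 0 among libraries of high Pcna-ps2 (5.69%). Over the 45 members the median difference was 0.06 and 31 were positive, beside 0.20 for all genes. With median-ratio scaling the median turned to -0.17, 5 were positive, and 3 members fell where 16.2% of all genes were called and 8.74% called lower. Those 3 were Ndufs1, the core subunit that holds several iron-sulfur clusters near the site of NADH oxidation (-0.48 ± 0.12, adjusted p = 0.00421, limma), and a pair of smaller proteins. The pair was Ndufab1, the acyl carrier protein itself (-0.41 ± 0.13, adjusted p = 0.0239), and the assembly factor Ndufaf7, a methyltransferase (-0.30 ± 0.08, adjusted p = 0.00827).

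Among the core subunits of the mock diaphragm, 0 of 7 were called as deposited, with a median difference of 0.03. Ndufs1 measured 236 ± 32.3 TPM (SD, n = 10) in cachectic and 280.2 ± 22.0 TPM (n = 9) in non-cachectic libraries (log2 difference -0.25 ± 0.11, adjusted p = 0.075, limma), with ranges of 176 to 269 (median 248) and 251 to 307 (median 275). Ndufs8, which carries iron-sulfur clusters beside the quinone site, measured 308 ± 35.3 and 329 ± 28.2 TPM (-0.10 ± 0.08). Ndufs3 and Ndufs7 of the quinone-binding part and Ndufv1 and Ndufv2, which bind the flavin and an iron-sulfur cluster at the NADH site, differed by 0.01 to 0.06, and by -0.22 to -0.17 after median-ratio scaling. Ndufs1 was called as deposited when number 11 of the cachectic rFibcd1 group was left out (adjusted p = 0.0249, limma). On the same deposited values it was also called lower by the Dunn test (adjusted p = 0.0337), with only the groups compared in the fit (0.0126), with array weights (0.0195) and with Pcna-ps2 as a term, but not without a filter (0.115) or in libraries of high Pcna-ps2 alone (0.107). Of the assembly factors none was called as deposited without that term. Ndufaf2, a chaperone of the last steps of assembly related to the subunit Ndufa12, had the highest difference, 0.35 ± 0.17 (adjusted p = 0.108, limma), at 30.9 ± 6.51 and 24.8 ± 9.26 TPM. Ndufaf4, which acts on the quinone-binding part together with Ndufaf3, followed at 0.19 ± 0.10, and Ndufaf1, Ndufaf3, Ndufaf5, Ndufaf6 and Ndufaf7 lay between -0.08 and 0.04. After median-ratio scaling Ndufaf2 stood at 0.12 and the other 6 from -0.30 to -0.04. Leaving out number 22 of the cachectic or 66 or 70 of the non-cachectic mock group brought Ndufaf2 as deposited below the threshold (adjusted p from 0.038 to 0.0478). Ndufa4 differed by 0.02 ± 0.07 and Ndufa4l2 by 0.10 ± 0.11 (-0.21 and -0.12 scaled). The summed level of 6 macrophage markers was also higher in cachectic mock diaphragm (395 against 170.4 TPM), as was that of 7 adipocyte markers (1077 against 439 TPM), and their part in these differences was not tested. Liver markers averaged 265 against 1147 TPM, with 9071 TPM in number 64 of the non-cachectic group, and their part was not tested either.

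In the diaphragm of mice given rFibcd1, the cachectic melanoma went with a fall of 2 of the 45 members and a rise of none (all genes: 9.11% called, 1.97% called lower). Ndufs1 ranged over 126 to 313 (median 215) TPM in 10 cachectic and 256 to 318 (median 293) TPM in 10 non-cachectic libraries, a difference of -0.35 ± 0.11 (adjusted p = 0.0378, limma). Ndufa10, an accessory subunit of the proximal membrane arm that resembles nucleoside kinases, ranged over 198 to 321 (median 249) and 269.5 to 322 (median 294) TPM (-0.23 ± 0.07, adjusted p = 0.0311, limma). For both genes 6 of the 10 cachectic libraries lay below the lowest non-cachectic one and the other 4 lay within the non-cachectic range. After median-ratio scaling, where 9.4% of all genes were called, Ndufs1 was still lower (-0.43 ± 0.11, adjusted p = 0.0158) and Ndufa10 no longer called (-0.31 ± 0.11, adjusted p = 0.0763). Both calls were marginal. That of Ndufs1 was lost without any one of 13 libraries (cachectic numbers 1, 3, 4, 5 and 11, and non-cachectic numbers 46 to 50 and 57 to 59; adjusted p from 0.0527 to 0.083). That of Ndufa10 was lost without any one of 7 (cachectic numbers 1, 3, 4 and 5, and non-cachectic numbers 49, 50 and 57; 0.0504 to 0.0774). The count of called members ran from 0 (without number 1, 7.02% of all genes) to 5 (without number 18, 13%). Array weights, the Dunn test, only the groups compared and libraries of high Pcna-ps2 alone each gave 0 (7.52%, 0%, 2.61% and 0% of all genes). At an unadjusted p under 0.05 they gave 3, 6, 5 and 4 members, and the share of all genes at that threshold is not given here. TPM rescaled to leave out mitochondrially encoded genes gave 7, all lower (9.32%). The median of the 45 members was -0.03, beside 0.08 for all genes, and -0.11 after median-ratio scaling. The 7 core subunits had a median of -0.11, the 9 matrix-arm subunits 0.06 and the 7 assembly factors -0.06 (-0.19, -0.02 and -0.13 scaled). Among assembly factors the differences lay between -0.13 for Ndufaf5, which modifies an arginine of Ndufs7, and 0.05 for Ndufaf2 (scaled, -0.21 to -0.02 over the 7). The other core subunits lay between -0.18 (Ndufs8) and 0.0047 (Ndufv2), Ndufa4 at 0.0035 ± 0.07 and Ndufa4l2 at -0.03 ± 0.11 (-0.08 and -0.11 scaled), none of them called. Macrophage markers summed to 500.3 TPM in cachectic and 255 TPM in non-cachectic mice given rFibcd1, and their part was not tested.

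Treatment with rFibcd1 was compared with mock treatment within each melanoma, to ask whether the protein changed the diaphragm transcriptome. With the cachectic melanoma 0 of 45 members were called where 0.0447% of all genes were, and with the non-cachectic one 0 of 45 where 0.417% were (limma). At an unadjusted p under 0.05 the count of members was 0 in both (the share of all genes at that threshold is not given here). The Dunn test called 0 in both. With array weights 0 were called in cachectic and 4, all higher with rFibcd1, in non-cachectic mice (4.49% and 39.9% of all genes), and with only the groups compared in the fit 0 and 1 (0% and 19.6%). The member with the highest difference in cachectic mice was Ndufb2, a small subunit of the distal membrane arm, at 35.4 ± 8.49 with rFibcd1 and 31.0 ± 4.12 TPM without (0.16 ± 0.09, SD and SE, n = 10 each, adjusted p = 0.545, limma, and 0.14 scaled). Lowest was Ndufs5, a subunit at the intermembrane-space side, at 219.5 ± 73.0 and 243 ± 43.0 TPM (-0.19 ± 0.14, adjusted p = 0.629, and -0.22 scaled). In non-cachectic mice 43 of 45 members were positive as deposited, with a median of 0.04 beside 0.15 for all genes, and 2 of 45 were positive after median-ratio scaling, with a median of -0.14. The difference of the rFibcd1 effect between the melanomas was called for 0 of 45 members (0.0223% of all genes), with member values between -0.33 (Ndufs5) and 0.11 (Ndufb2). Adipocyte markers summed to 1183 TPM with rFibcd1 and 439 TPM without in non-cachectic mice and macrophage markers to 255 and 170.4 TPM, and high Pcna-ps2 (below) was found in 6 of 10 and 3 of 9 of these libraries. Their part was not tested. These comparisons share libraries with the melanoma comparisons above.

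In tibialis anterior 5 members fell and 5 rose with the cachectic melanoma, where 60.2% of all genes were called, 56.4% higher and 3.78% lower. The fallen were the core subunits Ndufs1 and Ndufs8, the matrix-arm subunit Ndufs4, which is needed for a stable NADH-oxidising module, and Ndufb2 and Ndufb10 of the distal membrane arm. Ndufs1 measured 132, 167, 171, 182 and 190.3 TPM in the 5 cachectic libraries and 214, 228, 231, 234 and 243 TPM in the 5 non-cachectic ones, so that every cachectic library lay below every non-cachectic one (-0.46 ± 0.11, adjusted p = 0.00642, limma). Ndufs8 measured 171, 185, 188, 189 and 210 TPM against 218, 249.9, 258, 263 and 269 TPM, again without overlap (-0.41 ± 0.10, adjusted p = 0.0057). Ndufs4 measured 127, 135, 139.9, 142 and 162 TPM against 159, 175, 180.1, 181 and 189 TPM, with the groups touching at 1 library (-0.32 ± 0.10, adjusted p = 0.0153). Of the remaining pair, Ndufb2 differed by -0.32 ± 0.13 (adjusted p = 0.0458) and Ndufb10 by -0.26 ± 0.09 (adjusted p = 0.0216). The 5 lower genes kept their direction and their call after median-ratio scaling, at -0.93, -0.89, -0.80, -0.78 and -0.74.

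The genes that rose in tibialis anterior as deposited were Ndufa7, Ndufa6 and Ndufa2 of the matrix arm, Ndufa3, a small subunit of the proximal membrane arm, and the assembly factor Ndufaf2. Ndufa7 measured 108, 124, 126, 135 and 220.3 TPM in cachectic and 83.4, 85.7, 86.1, 87.5 and 96.4 TPM in non-cachectic libraries (0.65 ± 0.16, adjusted p = 0.0082, limma), the highest value coming from the library of low mitochondrial share. Ndufa6 measured 631, 652, 653, 689 and 838 TPM against 432, 454, 471, 493 and 494 TPM (0.56 ± 0.10, adjusted p = 0.00191). Ndufaf2 measured 20.5, 20.5, 21.4, 23.6 and 23.9 TPM against 12.7, 14.8, 15.5, 16.2 and 16.4 TPM (0.51 ± 0.11, adjusted p = 0.00352). The groups did not overlap for any of these 3 genes, nor for Ndufa3 (0.34 ± 0.09) and Ndufa2 (0.31 ± 0.11). How many of all genes of this muscle were so separated was not counted. After median-ratio scaling none of the 5 was called: Ndufa7 stood at 0.17, Ndufa6 at 0.08 and Ndufaf2 at 0.06, while Ndufa3 and Ndufa2 turned to -0.14 and -0.17. All cachectic libraries of this muscle had high and all non-cachectic ones low Pcna-ps2 (below), so that split and the melanoma cannot be told apart here. Between the sides of the split in diaphragm, Ndufaf2 and Ndufa6 differed by 0.75 and 0.40 as deposited. Ndufa3, Ndufa7 and Ndufa2 differed there by -0.01, -0.02 and -0.08.

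Over all members of tibialis anterior the median difference was -0.02 beside 0.41 over all genes. By class it was -0.11 for core subunits, 0.05 for the matrix arm, 0.00079 for the proximal and -0.04 for the distal membrane arm, and 0.10 for assembly factors. With median-ratio scaling 33 members were called lower and none higher, where 40.8% of all genes were called and 20.8% called lower, with a median of -0.50. They included 7 of 7 core subunits (-0.93 for Ndufs1 to -0.45 for Ndufs3), 6 of 9 in the matrix arm, 6 of 9 in the proximal and 10 of 11 in the distal membrane arm, and 4 of 7 assembly factors. Leaving out the library of low mitochondrial share under that scaling gave 38 members called (42.2% of all genes) and a median of -0.38. As deposited, leaving it out gave 16 called (66.7% of all genes), against 7 (48.5%) without number 62 of the non-cachectic group. Between the scalings Ndufs3 moved from 0.03 ± 0.08 to -0.45 ± 0.11, Ndufaf3 from 0.14 ± 0.15 to -0.31 ± 0.07 and Ndufaf4 from 0.16 ± 0.13 to -0.30 ± 0.08, each a change of direction. Their deposited values leaned on the library of low mitochondrial share, and without it they were -0.0083, 0.0078 and 0.04. The scaling also lowered the median of all genes, from 0.41 to within 0.04 of 0. Core subunits also differed as deposited by -0.13 (Ndufs7), -0.11 (Ndufv1) and -0.10 (Ndufv2), the other assembly factors by -0.21 (Ndufaf6) to 0.10 (Ndufaf1), and all of these were negative after scaling (-0.66 to -0.37). Ndufa4 and Ndufa4l2 were not called at 0.15 ± 0.08 and 0.33 ± 0.22 (-0.33 and -0.10 scaled), though Ndufa4 was without the library of low mitochondrial share (adjusted p = 0.0336, limma). Macrophage markers summed to 81.5 TPM in cachectic and 19.8 TPM in non-cachectic tibialis anterior, and their part was not tested.

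In soleus 4 members rose and 1 fell, where 25.1% of all genes were called, 17.5% higher and 7.54% lower. Ndufb5, of the distal membrane arm, measured 397, 414, 436, 444 and 465 TPM in the 5 cachectic libraries and 286, 291, 295, 304 and 307 TPM in the 5 non-cachectic ones (0.54 ± 0.07, adjusted p = 0.000441, limma). The groups were separated by a gap wider than the range of either. Ndufa6 measured 594, 608, 620.5, 783 and 846 TPM against 488, 492, 493, 505 and 506 TPM (0.46 ± 0.11, adjusted p = 0.00971). Ndufaf2 measured 22.3, 24.7, 25.9, 28.6 and 31.1 TPM against 18.3, 18.6, 19.1, 20.2 and 20.98 TPM (0.42 ± 0.09, adjusted p = 0.00814). Ndufa7 measured 119, 136, 136, 149.9 and 183 TPM against 94.6, 106, 107, 111 and 118 TPM (0.42 ± 0.11, adjusted p = 0.0187). For these 3 genes, too, the lowest cachectic library lay above the highest non-cachectic one. How many of all genes were so separated was not counted. All cachectic soleus libraries had high and all non-cachectic ones low Pcna-ps2 (below), so that split and the melanoma cannot be told apart here. Between the sides of the split in diaphragm, Ndufaf2, Ndufa6, Ndufb5 and Ndufa7 differed by 0.75, 0.40, 0.12 and -0.02 as deposited. Ndufs1 was the gene that fell, at 103, 137, 175, 178 and 215 TPM against 209.8, 222, 229, 231 and 232 TPM (-0.52 ± 0.16, adjusted p = 0.0384), with 1 cachectic library inside the range of the other group. That call was lost without cachectic number 7 or without any one non-cachectic library (adjusted p from 0.0603 to 0.0811, limma). After median-ratio scaling Ndufb5 (0.43 ± 0.07, adjusted p = 0.0019), Ndufaf2 (0.32 ± 0.10, adjusted p = 0.0417) and Ndufa7 (0.31 ± 0.10, adjusted p = 0.0484) were still higher and Ndufa6 was no longer called (0.35 ± 0.16). Ndufs1 differed by -0.63 ± 0.19 under that scaling (adjusted p = 0.0345), where 28.2% of all genes were called. With TPM rescaled to leave out mitochondrially encoded genes the balance was another, 1 member higher and 20 lower, where 31.2% of all genes were called. Ndufb5 was the gene still higher (0.30, adjusted p = 0.00552), Ndufa6 (0.22), Ndufaf2 (0.20) and Ndufa7 (0.18) were not called, and 7 of 7 core subunits were lower. Of the cachectic soleus libraries, number 7 had the highest level of the fast myosin Myh4, and without it 2 members were called after median-ratio scaling, both higher (23.2% of all genes).

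Core subunits of soleus were all negative, from -0.52 for Ndufs1 and -0.31 for Ndufs8 (adjusted p = 0.0535, limma) to -0.11 for Ndufs3 and Ndufs7, with a median of -0.15 as deposited and -0.25 after median-ratio scaling. Ndufs8 measured 169, 199, 207, 244 and 247 TPM in cachectic and 240.1, 256, 262, 273 and 277 TPM in non-cachectic libraries, which overlapped at 2 cachectic libraries, and it was called without cachectic number 6 or 10 (adjusted p = 0.0247 and 0.0315, limma). Assembly factors other than Ndufaf2 were not called and lay between -0.14 (Ndufaf5) and 0.28 (Ndufaf1), or -0.24 to 0.17 scaled. Ndufaf1 was called without cachectic number 8 (0.39, adjusted p = 0.0202, limma) and stood at 0.18 without cachectic number 10. The 45 members had a median of -0.09 as deposited, beside 0.09 for all genes, and -0.20 after median-ratio scaling. The count of called members ran from 3 (without number 62 of the non-cachectic group, 17.6% of all genes) to 8 (without number 6 of the cachectic group, 31.7%) when single libraries were left out. Ndufa4 differed by -0.07 ± 0.09 and Ndufa4l2 by -0.12 ± 0.19 (-0.18 and -0.23 scaled), neither called. The 6 macrophage markers summed to 111 against 62.4 TPM, mostly through Cd68 (40.8 against 6.70 TPM), while Adgre1 was at 1.70 against 1.61, Mrc1 at 4.37 against 4.18 and Csf1r at 5.27 against 7.03 TPM. Adipocyte markers summed to 157, 626, 801, 1171 and 4825 TPM in the cachectic libraries, the highest being number 8, and to 328, 382, 684, 724 and 1079 TPM in the non-cachectic ones, with medians of 801 and 684 TPM. The part of these cells was not tested.

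**Figure D3:**
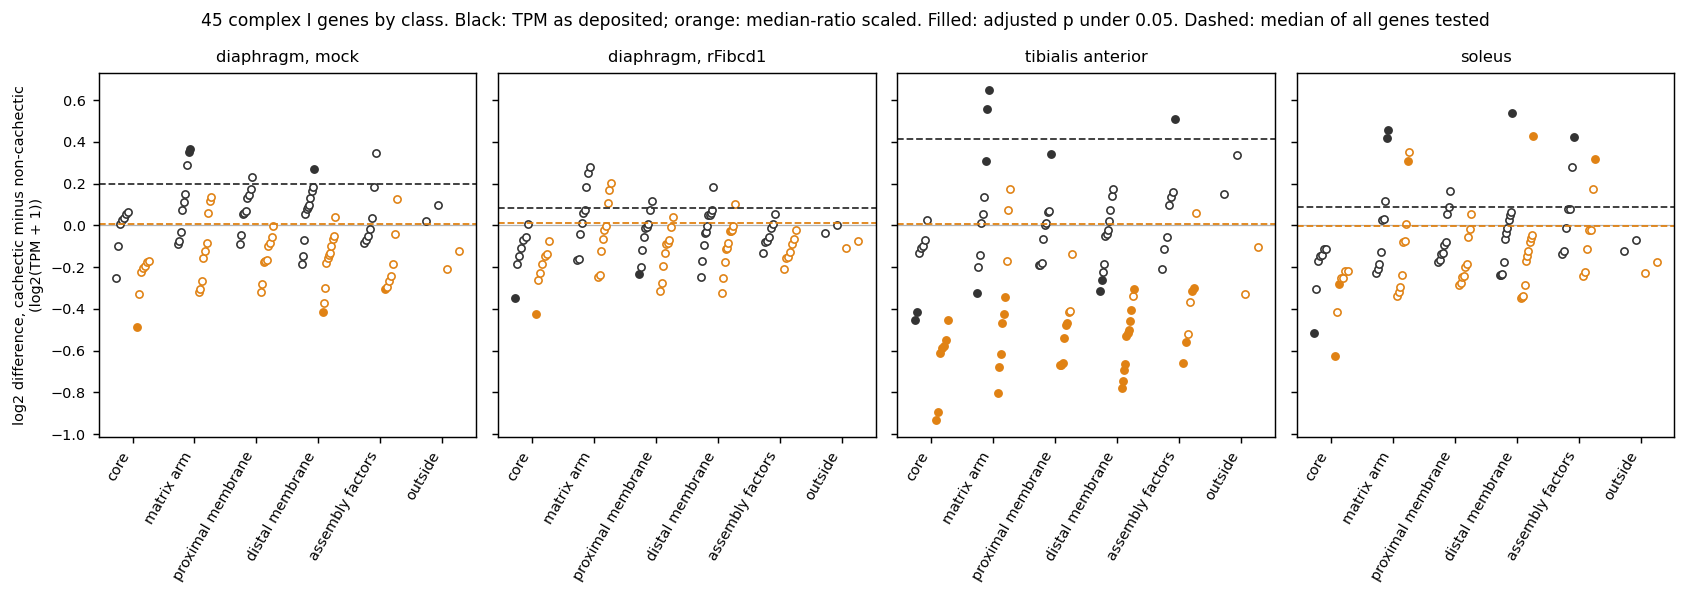
Difference between cachectic and non-cachectic melanoma, in log2(TPM + 1), for the 45 genes by structural class in 4 comparisons (black, TPM as deposited; orange, median-ratio scaled; filled, adjusted p under 0.05 by limma; dashed, median of all genes tested). In tibialis anterior the members had a median of -0.02 as deposited and -0.50 after scaling, so that the share of positive genes went from 22 to 3 of 45, while Ndufb5 in soleus stayed positive under both.

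Whether the melanoma effect differed between muscles was tested directly, in one fit of the 39 libraries without rFibcd1. High Pcna-ps2 (below) was spread unevenly over these libraries. In each limb muscle it marked all 5 cachectic and none of the 5 non-cachectic libraries, in mock diaphragm 9 of 10 and 3 of 9. In comparisons of diaphragm with a limb muscle, that split and a difference of the melanoma effect therefore cannot be told apart. Between tibialis anterior and soleus 2 members differed, where 20.4% of all genes did. Ndufb5 was lower by the comparison (-0.46 ± 0.16, adjusted p = 0.0408, limma), having risen in soleus. It measured 243, 246, 289, 293 and 301 TPM in cachectic and 244, 247, 265, 266 and 277 TPM in non-cachectic tibialis anterior, where the groups overlapped. That call was lost without any one of 14 of the 20 limb-muscle libraries (adjusted p from 0.0503 to 0.0658). Ndufa3 differed the other way (0.52 ± 0.12, adjusted p = 0.00358). It measured 278, 279, 286, 288 and 349 TPM against 220.2, 231, 232, 233 and 246 TPM in tibialis anterior and 161, 200, 216, 218 and 246 TPM against 222, 231, 232, 234 and 244 TPM in soleus. After median-ratio scaling Ndufb5 still differed (-0.86 ± 0.16, adjusted p = 0.000563), joined by Ndufb7 (-0.46 ± 0.15) and Ndufaf7 (-0.48 ± 0.15), whereas Ndufa3 did not pass (0.12 ± 0.17, adjusted p = 0.703), against 10.9% of all genes. Between diaphragm and tibialis anterior 0 members differed as deposited (5.04% of all genes; 5 members at an unadjusted p under 0.05). After median-ratio scaling Ndufb7 (0.48 ± 0.13), Ndufa8 (0.51 ± 0.15) and Ndufs8 (0.57 ± 0.17) did, with the difference less negative in diaphragm (again 5.04% of all genes). Between diaphragm and soleus 0 members differed (2.52% of all genes; 5 members at an unadjusted p under 0.05), nor any after scaling. For both comparisons the share of all genes at that unadjusted threshold is not given here. Array weights gave 5 and 1 members in these comparisons with diaphragm (11% and 5.49% of all genes). For Ndufs1 the differences of the melanoma effect were 0.26 ± 0.16 for diaphragm against soleus and 0.06 ± 0.18 for tibialis anterior against soleus (0.12 ± 0.22 and -0.34 ± 0.25 scaled), and missing the threshold does not show that the effects were alike. The numbers in the column names recur between muscles (6 to 10 and 61 to 65), and whether such libraries came from the same mice is not given. The values above treat all libraries as independent, but libraries of different muscles with the same number deviated together. With that number as a block, 5 members differed between diaphragm and tibialis anterior (17.2% of all genes), with Ndufs8 at 0.37 ± 0.10 (adjusted p = 0.00963, limma), Ndufs4 at 0.27 ± 0.08, and Ndufa11, Ndufa8 and Ndufb9 between 0.22 ± 0.08 and 0.30 ± 0.10. Between diaphragm and soleus 2 differed under the block (7.36%), Ndufb8 among them (0.31 ± 0.09, adjusted p = 0.0375). Between tibialis anterior and soleus Ndufb5 (adjusted p = 0.00457), Ndufa3 (0.000327) and Ndufa4 (0.22 ± 0.08, 0.0366) did (41.2%). The block with median-ratio scaling gave 22, 0 and 20 members in these 3 comparisons, where 12.6%, 6.53% and 21% of all genes were called, all 22 with the higher cachectic minus non-cachectic difference in diaphragm and all 20 with the lower one in tibialis anterior.

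Among the 39 diaphragm libraries, 3 members divided along a split that crossed the labelled groups, in full in the non-cachectic and in part in the cachectic ones. The processed pseudogene Pcna-ps2 was at 8.07 TPM or more in 26 diaphragm libraries and at 0.428 TPM or less in 13. The high side held 9 of 10 cachectic mock, 8 of 10 cachectic rFibcd1, 3 of 9 non-cachectic mock and 6 of 10 non-cachectic rFibcd1 libraries. All 10 cachectic limb-muscle libraries were on the high and all 10 non-cachectic ones on the low side, so in those muscles the split and the melanoma cannot be told apart. As the split was seen in the data, its values are a description without a test. Ndufaf2 showed it most: in the non-cachectic mock diaphragm the 3 high-side libraries were at 34.0, 38.3 and 38.3 TPM and the 6 others at 16.1, 17.3, 19.0, 19.2, 19.3 and 21.7 TPM. In the non-cachectic rFibcd1 group the ranges were 30.7 to 38.7 TPM (6 libraries) and 18.5 to 22.0 TPM (4 libraries). The single low-side library of the cachectic mock group had the lowest Ndufaf2 of its group (17.6 TPM), where the high side began at 22.6 TPM. In the cachectic rFibcd1 group the sides overlapped, since the low-side libraries were at 16.7 and 27.6 TPM and the 8 high-side ones began at 27.1 TPM. Within groups the log2 difference of high minus low was 0.75 ± 0.07 (SE, from a fit with the 4 groups as terms) for Ndufaf2, 0.53 ± 0.08 for Ndufaf1, which acts early in building the membrane arm, and 0.40 ± 0.07 for Ndufa6. Ndufa6 followed with 702, 756 and 826 TPM in the 3 high-side and 456 to 501 TPM in the 6 low-side non-cachectic mock libraries, but in the cachectic rFibcd1 group its highest value, 876 TPM, came from a low-side library, number 11. For Ndufaf1 the sides were apart in the non-cachectic groups, at 53.8 to 56.4 against 32.0 to 41.3 TPM with mock and 47.1 to 57.2 against 33.6 to 39.3 TPM with rFibcd1 treatment (high side first), and overlapped in the cachectic ones, where the lowest mock library was on the high side (27.4 to 54.8 TPM, against 30.9 TPM in the 1 low-side library) and the rFibcd1 sides were at 31.4 to 55.2 and 27.0 to 37.7 TPM. The other assembly factors differed less, with 0.20 for Ndufaf7 and 0.15 for Ndufaf3, and the lowest of the 45 was Ndufs5 at -0.27 ± 0.11 (-0.55 ± 0.13 scaled). The median member differed by 0.02 and the median gene by 0.23. After median-ratio scaling the members' median was -0.26 and 3 of 45 were positive, namely Ndufaf2 (0.49 ± 0.10), Ndufaf1 (0.25 ± 0.10) and Ndufa6 (0.12 ± 0.11).

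**Figure D4:**
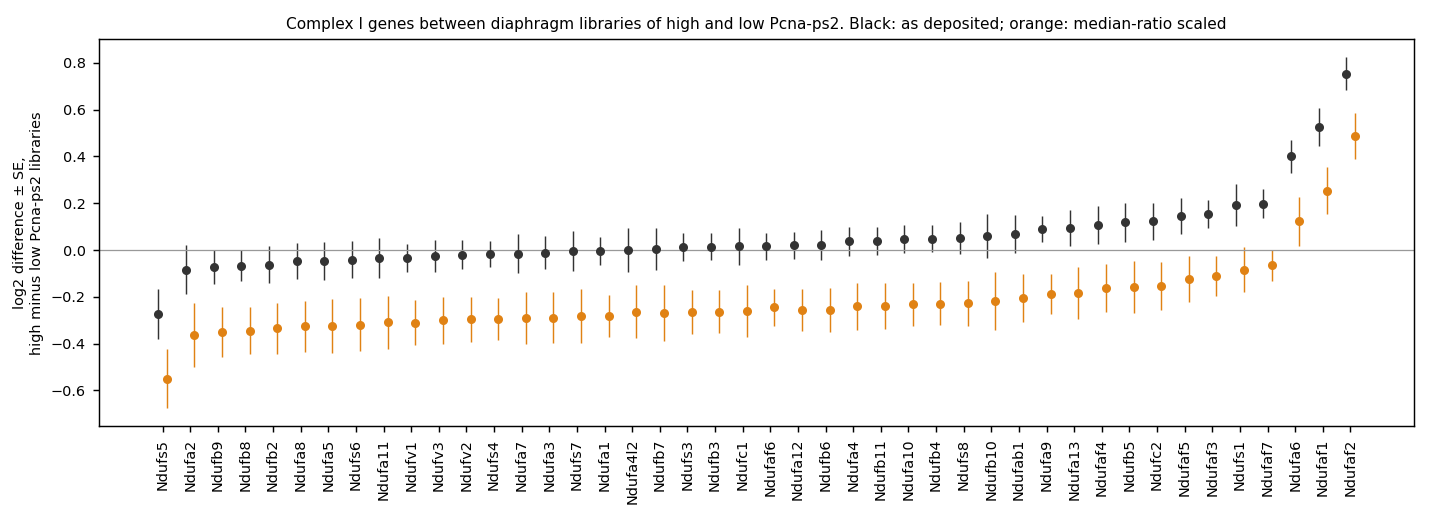
Log2 difference (± SE), on log2(TPM + 1), between the 26 diaphragm libraries with high and the 13 with low Pcna-ps2, with the 4 labelled groups as terms, for 44 of the genes in order (black, TPM as deposited; orange, median-ratio scaled). Ndufaf2, Ndufaf1 and Ndufa6 stand at the right end and are the genes above 0 under both scalings by more than 0.1, at 0.49, 0.25 and 0.12 after scaling, while most others lie below 0 once scaled.

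The 250 bases before the transcription start are shown for Ndufa6 and Ndufaf2, which moved along that split, beside Ndufs5, which lay at its other end, and Ndufb7, the member highest in diaphragm over tibialis anterior as deposited, though not after median-ratio scaling. The 4 genes were chosen after their values were seen. Sequences are from RefSeq and run 5′ to 3′ on the gene's strand, with capitals marking matches to 4 motifs sought on both strands: GCGCA and GCGC separated by 1 base of any kind (like the site of NRF-1, a regulator of respiratory genes), CCGGAAG (ETS factors), AAGGTCA (estrogen-related receptors) and CCAAT.
Ndufa6, GRCm38.p6 chr15:82354292-82354541, minus strand: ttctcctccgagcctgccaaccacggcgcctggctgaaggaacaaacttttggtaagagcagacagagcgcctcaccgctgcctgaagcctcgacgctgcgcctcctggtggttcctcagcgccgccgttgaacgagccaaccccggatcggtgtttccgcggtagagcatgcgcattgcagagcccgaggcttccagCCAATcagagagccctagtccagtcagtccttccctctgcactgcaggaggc
Ndufaf2, GRCm38.p6 chr13:108158626-108158875, minus strand: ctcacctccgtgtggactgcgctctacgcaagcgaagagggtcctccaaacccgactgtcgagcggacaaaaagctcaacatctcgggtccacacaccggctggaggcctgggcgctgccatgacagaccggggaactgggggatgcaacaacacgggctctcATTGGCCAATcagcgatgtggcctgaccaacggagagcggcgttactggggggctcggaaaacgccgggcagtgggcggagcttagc
Ndufs5, GRCm38.p6 chr4:123718187-123718436, minus strand: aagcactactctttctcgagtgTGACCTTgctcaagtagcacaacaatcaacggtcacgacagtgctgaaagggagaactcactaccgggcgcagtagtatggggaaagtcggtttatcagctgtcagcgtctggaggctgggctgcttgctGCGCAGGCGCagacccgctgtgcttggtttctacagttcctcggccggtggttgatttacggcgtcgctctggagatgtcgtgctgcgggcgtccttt
Ndufb7, GRCm38.p6 chr8:83566508-83566757, plus strand: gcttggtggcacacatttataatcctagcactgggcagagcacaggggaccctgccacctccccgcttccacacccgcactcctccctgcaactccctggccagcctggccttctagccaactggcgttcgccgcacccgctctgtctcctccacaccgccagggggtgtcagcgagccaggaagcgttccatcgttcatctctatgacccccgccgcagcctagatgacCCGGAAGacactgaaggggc

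Ndufa6 had CCAAT at 52 to 48 bases before the start, and Ndufaf2 had ATTGG (the same box on the other strand) at 87 to 83 and CCAAT at 82 to 78 bases, directly adjoining. Ndufs5 had GCGCAGGCGC at 98 to 89 and TGACCTT (the receptor motif on the other strand) at 228 to 222 bases, and Ndufb7 had CCGGAAG at 20 to 14 bases. A promoter entry was matched for 39 of the 45 members. The NRF-1-like motif was in 7 of these (17.9%) and in 4.23% of 27025 genes, the ETS motif in 4 (10.3%) and in 7.83% of genes, the receptor motif in 3 (7.69%) and in 4.70%, and CCAAT in 13 (33.3%) and in 37.5%. These are matches of letters in a window, and binding was not measured. The 7 members with the NRF-1-like letters were Ndufa5, Ndufa8, Ndufa11, Ndufaf4, Ndufb4, Ndufs5 and Ndufs6, and the 13 with CCAAT were Ndufa6, Ndufa13, Ndufaf1, Ndufaf2, Ndufaf3, Ndufb2, Ndufb3, Ndufb4, Ndufb11, Ndufc2, Ndufs6, Ndufs8 and Ndufv3, of which all but Ndufa6, Ndufaf1 and Ndufaf2 differed by -0.06 (Ndufb2) to 0.15 (Ndufaf3) between its sides. In GENCODE M21 (GRCm38), Ndufa6 lies at chr15:82350140-82354322, minus strand, Ndufaf2 at chr13:108002715-108158623, minus strand, Ndufs5 at chr4:123712710-123718202, minus strand, Ndufb7 at chr8:83566671-83571626, plus strand, and Ndufs1, for which no promoter entry was matched, at chr1:63143596-63176833, minus strand. The start used by RefSeq differs from the outermost start in GENCODE, so that the windows of Ndufa6, Ndufs5 and Ndufb7 overlap the GENCODE gene.

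Without cachexia the muscles themselves differed in these genes. Against tibialis anterior, 33 members were higher in diaphragm and 1 lower as deposited, where 72.5% of all genes were called, 64% higher and 8.52% lower, with a median of 0.28 beside 0.44 for all genes. Ndufb7, a subunit on the intermembrane-space side of the distal arm, ranged over 69.1 to 105 (median 79.2) TPM in 9 diaphragms and measured 46.0, 48.6, 49.8, 52.5 and 54.0 TPM in the 5 tibialis anterior muscles (0.70 ± 0.09, adjusted p = 1.23e-08, limma). Ndufb3, a small distal subunit, ranged over 337 to 441 (median 351) TPM against 212, 215, 218, 233 and 257 TPM (0.69 ± 0.08, adjusted p = 7.47e-09). Ndufa4l2 ranged over 11.6 to 18.0 (median 13.6) TPM against 5.50, 8.07, 8.29, 10.2 and 10.4 TPM (0.67 ± 0.16, adjusted p = 0.000446). No diaphragm library overlapped with tibialis anterior in any of the 3, and how many of all genes were so separated was not counted. The exception was Ndufaf6, a factor for the quinone-binding part, lower in diaphragm (-0.38 ± 0.09, adjusted p = 0.000535). Median-ratio scaling left none higher and 21 lower, where 70.4% of all genes were called and 34.4% called lower, and put Ndufb7 at 0.16 ± 0.09, Ndufb3 at 0.14 ± 0.11 and Ndufaf6 at -0.90 ± 0.12. Thus the excess of members in diaphragm over tibialis anterior depended on the scale, while Ndufaf6 was lower under both. With the column number as a replicate block, Ndufaf5 was also called lower in diaphragm (-0.28 ± 0.09, adjusted p = 0.00846, limma) and Ndufa6 was no longer called higher (0.19 ± 0.10, adjusted p = 0.0929). High Pcna-ps2 was found in 3 of 9 of these diaphragm libraries and in 0 of 5 of each limb muscle, and its part was not tested. Ndufa6, which divided along that split, ranged over 456 to 826 (median 500.2) TPM in diaphragm and 432 to 494 TPM in tibialis anterior. Marker sums differed between these muscles as well, at 170.4 against 19.8 TPM for macrophages, 439 against 38.5 TPM for adipocytes and 5156 against 551 TPM for red blood cells (diaphragm first), and their part was not tested. The same holds for liver markers, at 1147 against 0.204 TPM, with 9071 TPM in diaphragm number 64.

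Soleus exceeded tibialis anterior in 13 members and fell below it in 2, against 69.5% of all genes called (63.9% up, 5.63% down). Scaled by the median ratio it exceeded in 2 and fell below in 39, where 53.1% were called and 26.7% called lower. Without that scaling, array weights gave 25 called members (22 higher, 82.1% of all genes), only the groups compared 25 (21 higher, 85.8%), the Dunn test 5 (3 higher, 37%) and TPM without mitochondrially encoded genes 10 (3 higher, 63.9%). Macrophage markers summed to 62.4 against 19.8 TPM and adipocyte markers to 639 against 38.5 TPM (soleus first), and their part was not tested. Ndufa4l2 was at 14.8, 15.3, 16.5, 17.9 and 20.2 TPM (0.94 ± 0.19, adjusted p = 4.31e-05, limma) in the 5 soleus muscles. Ndufb3 was at 399.7, 401, 428, 428 and 465 TPM there (0.90 ± 0.10, adjusted p = 5.5e-10). These were the 2 genes still higher after scaling (0.39 ± 0.15 and 0.30 ± 0.13). Ndufb7 was at 75.8, 79.3, 79.8, 80.9 and 82.6 TPM (0.66 ± 0.10, and 0.06 ± 0.11 after scaling). The lower genes were the assembly factors Ndufaf6, at 12.2, 12.4, 12.6, 12.8 and 12.9 TPM against 19.3, 19.5, 19.7, 20.3 and 21.05 TPM (-0.62 ± 0.11, adjusted p = 4.28e-06), and Ndufaf5. The latter was at 22.8, 22.9, 23.0, 24.4 and 26.6 against 30.6, 32.1, 33.2, 34.5 and 34.9 TPM (-0.45 ± 0.13, adjusted p = 0.0035). Neither overlapped between the muscles, and both stayed lower after scaling (-1.20 ± 0.14 and -1.04 ± 0.18). With the replicate block 4 more members were called higher in soleus as deposited: Ndufa2, Ndufa9, Ndufb9 and Ndufaf2 (adjusted p from 0.0203 to 0.0414).

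Between diaphragm and soleus 22 members were higher in diaphragm and 1 lower as deposited, where 38.8% of all genes were called and 16.8% called higher. With median-ratio scaling the counts were 21 and 0, where 47.1% were called and 23.7% called higher, and with TPM rescaled to leave out mitochondrially encoded genes they were 37 and 0 (44.7% called). The Dunn test called 3, all higher (8.73%), and leaving out number 64 of the soleus group gave 15 (32.4%). The member median was 0.19 as deposited and 0.25 scaled, beside -0.04 and 0.01 for all genes. The highest differences were those of 3 assembly factors, Ndufaf1, Ndufaf4 and Ndufaf3. Ndufaf1 ranged over 32.0 to 56.4 (median 37.1) TPM in diaphragm against 28.3, 28.6, 29.7, 31.1 and 33.0 TPM in soleus (0.46 ± 0.14, adjusted p = 0.00746, limma), a gene in which the diaphragm libraries also divided along the split described above. Ndufaf4 ranged over 22.0 to 31.5 (median 25.5) TPM against 17.1, 17.8, 19.4, 19.5 and 20.5 TPM (0.46 ± 0.12, adjusted p = 0.00212). Ndufaf3 ranged over 16.1 to 24.5 (median 17.8) TPM against 12.9, 13.1, 13.2, 14.2 and 14.4 TPM (0.44 ± 0.10, adjusted p = 0.000623), and neither overlapped. Of the other 4 assembly factors Ndufaf6 was also called (0.25 ± 0.09, adjusted p = 0.0328), and Ndufaf2 (0.26 ± 0.17), Ndufaf5 (0.22 ± 0.12) and Ndufaf7 (0.10 ± 0.07) were not. Of the core subunits 5 of 7 were higher in diaphragm under both scalings, with medians of 0.29 and 0.35. The lower member was Ndufb3 (-0.21 ± 0.08, adjusted p = 0.0422), which did not pass after scaling (-0.15 ± 0.11) or without any one of 9 libraries (diaphragm numbers 61 to 65 and 68, soleus numbers 62, 63 and 65; adjusted p from 0.0544 to 0.126). With the replicate block Ndufa4l2 was also called lower in diaphragm as deposited (-0.31 ± 0.13, adjusted p = 0.0386). Red blood cell markers summed to 5156 against 989 TPM, macrophage markers to 170.4 against 62.4 TPM and adipocyte markers to 439 against 639 TPM (diaphragm first), and their part was not tested. Diaphragm, tibialis anterior and soleus were compared on shared groups of libraries, so the 3 comparisons are not independent.

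**Figure D5:**
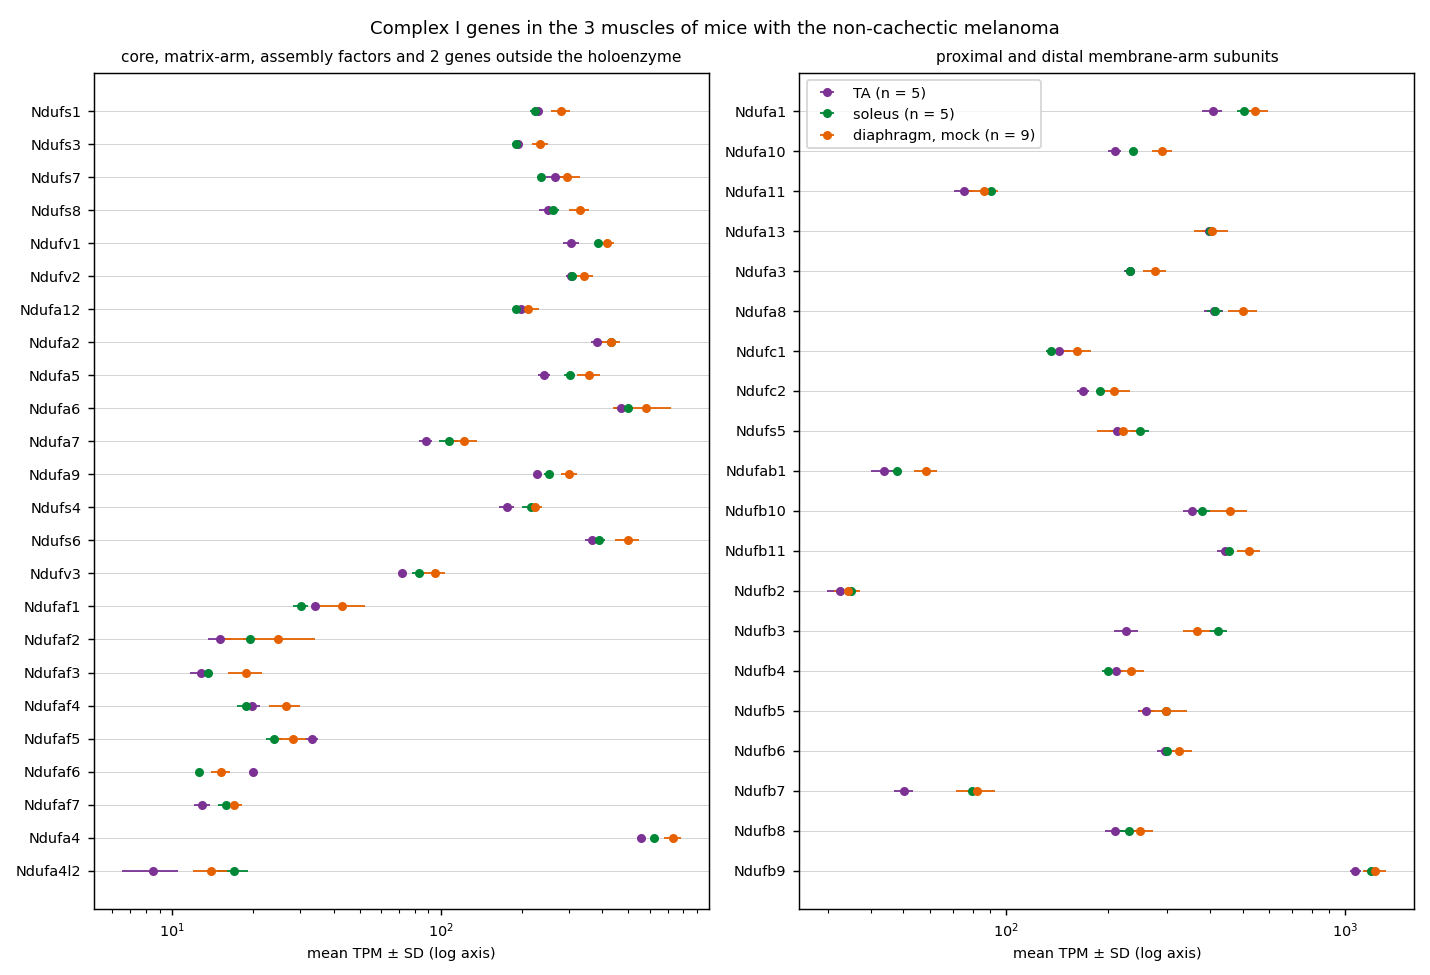
Mean TPM ± SD (log axis) of 44 of the genes in the 3 muscles of mice with the non-cachectic melanoma (purple, tibialis anterior, n = 5; green, soleus, n = 5; orange, mock diaphragm, n = 9). Tibialis anterior had the lowest mean of the 3 muscles for most subunits on this scale, as for Ndufb3 at 227 TPM against 424 TPM in soleus, an order that reversed for most subunits after median-ratio scaling, and highest for Ndufaf6 under both scalings.

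The other genes of the pathway were counted from lists chosen by symbol. The 7 mitochondrially encoded subunits had negative differences with the cachectic melanoma in each of the 4 comparisons, and none was positive under either scaling. Their sum also divided along the Pcna-ps2 split in the non-cachectic diaphragm groups, as given above, and the part of that split was not tested. Called lower were 5 of 7 in mock diaphragm (median -0.32), 3 with rFibcd1 (-0.28), 3 in tibialis anterior (-0.28) and 6 in soleus (-0.47). Of all genes 2.67%, 1.97%, 3.78% and 7.54% were called lower in these comparisons. The largest of these differences was mt-Nd6 in tibialis anterior, at 463 ± 146 against 836 ± 196 TPM (SD, n = 5 each; log2 difference -0.90 ± 0.26, adjusted p = 0.0133, limma). In soleus mt-Nd5 had the largest, at 7167 ± 1344 against 12586 ± 1199 TPM (-0.83 ± 0.15, adjusted p = 0.00273). Of 11 assembly factors without an Nduf symbol, none was called in mock diaphragm or soleus. With rFibcd1, 1 was lower, Dmac2 (listed as Atp5sl; -0.29 ± 0.10, adjusted p = 0.0491, limma, and -0.36 scaled). In tibialis anterior 1 was higher, Acad9, which works with Ndufaf1 (0.33 ± 0.11, adjusted p = 0.0235, and -0.11 after median-ratio scaling). 1810043H04Rik, the row of Ndufaf8, was higher in tibialis anterior (0.36 ± 0.14, adjusted p = 0.0411; -0.10 scaled) and not called in the other muscles. Among nuclear genes of the other complexes in tibialis anterior, where 56.4% of all genes were called higher and 3.78% lower as deposited, 3 of 4 of complex II were lower as deposited (median -0.30), as were 2 of 8 of complex III (-0.03). Complex IV had 2 of 15 lower and 4 higher (median 0.10) and the ATP synthase 3 of 15 lower and 1 higher (-0.09). All these medians stood below the 0.41 of all genes. Of 77 mitochondrial ribosomal proteins 20 were higher and 5 lower there, with a median of 0.22. With median-ratio scaling in that muscle (20.8% of all genes called lower), 4 of 4 of complex II, 7 of 8 of complex III, 7 of 15 of complex IV and 11 of 15 of the ATP synthase were lower, 1 of complex IV was higher, and of the ribosomal proteins 3 were higher and 43 lower. Set against the members' -0.02 in tibialis anterior, -0.09 in soleus and 0.06 in mock diaphragm, the medians of complex III were -0.03, -0.10 and 0.05, and those of the ATP synthase -0.09, -0.10 and 0.08.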

How the data were processed

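RNA-seq of mouse diaphragm, tibialis anterior and soleus was deposited as 1 table of TPM (abundance per transcript length, scaled to a fixed total), which the authors made in CLC Genomics Workbench from reads mapped to GRCm38 (mm10), per the study's methods. The annotation used is not given in the sources used here, and the labels and the methods name different library kits and instruments. Every column sums to the same total, so sequencing depth is unknown. How reads shared with processed pseudogenes were assigned is not stated. All 59 columns were assigned to the 8 groups by their names, and column numbers do not match the replicate numbers of the labels.

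Values were analysed as log2(TPM + 1), which understates changes of low genes, in genes at 1 TPM or more in at least as many libraries as the smallest group of the fit. Group means were fitted with limma 3.58.1 in R 4.3.3 (empirical Bayes with a trend), with Benjamini-Hochberg adjustment over all genes tested and a threshold of 0.05, in 4 fits: all 39 diaphragm libraries, tibialis anterior, soleus, and the 39 libraries without rFibcd1 for comparisons between muscles. An adjusted p comes from these fits unless another test or setting is named beside it, and ± after a log2 difference is its standard error. P-values measure the spread between the deposited libraries. Groups without overlap are described for members alone, mostly called ones, and the share of all genes without overlap was not counted. Median-ratio scaling divided each library by its median ratio to the geometric mean over the genes tested. Other alternatives were a pseudocount of 0.1, no filter, a filter at a mean of 5 TPM, TPM rescaled without mitochondrially encoded genes, array weights, the Dunn test used in the study, only the groups compared, Pcna-ps2 (split at 1 TPM) as a term or as a filter, and leaving out each library in turn. A block on the column number and the combined alternatives were chosen after seeing the data. Pairing was checked by correlating, over all genes tested, deviations from the group means of libraries from different muscles. The 10 pairs with the same number gave r of 0.13 to 0.50 for diaphragm and tibialis anterior, 0.20 to 0.49 for the limb muscles and 0.01 to 0.45 for diaphragm and soleus (8 of 10 over 0.1), against means of -0.04, -0.09 and -0.03 for pairs of other numbers. Scripts were tested on simulated data.

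The members, gene lists and markers were chosen with earlier results of these data known. One core subunit enters the counts and medians but is otherwise not reported here. Named with values were the other core subunits and the assembly factors in the melanoma comparisons, the 3 highest and 3 lowest called members of each comparison, and Ndufa4 and Ndufa4l2; Ndufab1, Ndufa2, Ndufa3, Ndufb2, Ndufb10, Ndufs5, Ndufa8, Ndufa9, Ndufa11, Ndufb8, Ndufb9 and Pcna-ps2 were named after their values were seen where that rule did not reach them. Chromosome positions are from GENCODE M21, in which each member matched 1 gene. Figures were drawn with Python 3.11.15 and matplotlib 3.10.9.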

Additional observations from a re-analysis of the deposited data

Results flagged for a closer look

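A library far from the rest of its group (Dixon's criterion at 95%) was found for 12 of the 168 sets of values tested, a criterion that chance alone meets in about 1 of 20 sets. Of these, 4 came from library number 11 of the cachectic rFibcd1 diaphragm: Ndufa4 at 1098 TPM against 834 TPM in the next library, Ndufa4l2 at 29.3 TPM against 19.96 TPM, Ndufv2 at 529 TPM against 398 TPM, and the sum of the 36 nuclear subunits at 18523 TPM against 13612 TPM. The same library held 29.8% of its TPM in mitochondrially encoded genes. Number 14 of that group was lowest in Ndufaf2, at 16.7 TPM against 27.1 TPM in the next. A further 4 came from number 8 of cachectic tibialis anterior, the library of low mitochondrial share: it was highest in Ndufa6 (838 TPM against 689 TPM), Ndufa7 (220.3 TPM against 135 TPM) and Ndufaf4 (31.5 TPM against 21.1 TPM), and lowest in Ndufv1 (234 TPM against 291 TPM). Number 66 of the non-cachectic mock diaphragm was highest in Ndufa7 (154 TPM against 129.8 TPM) and Ndufs7 (379 TPM against 309 TPM). Number 22 of the cachectic mock diaphragm, the 1 library of its group with low Pcna-ps2, was lowest in Ndufa6 (510.2 TPM against 661 TPM).

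The effect of the cachectic melanoma differed between tibialis anterior and soleus for Ndufb5 (-0.46 ± 0.16, adjusted p = 0.0408, limma) and for Ndufa3 (0.52 ± 0.12, adjusted p = 0.00358), of which Ndufa3 did not pass after median-ratio scaling.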

How the results depend on the processing

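A pseudocount of 0.1 and a filter at a mean of 5 TPM left every count of called members within 1.5 times and every median within the spread between libraries. In brackets is the share of all genes called in the same fit. Median-ratio scaling gave 1 called member [9.4%] in rFibcd1 diaphragm, 33 [40.8%] in tibialis anterior, 21 [70.4%] for diaphragm and 41 [53.1%] for soleus against tibialis anterior, and 3 [5.04%] for the effect in diaphragm against tibialis anterior, with medians of -0.17 in mock diaphragm and -0.50 in tibialis anterior. TPM rescaled without mitochondrially encoded genes gave 11 [14.1%] in mock and 7 [9.32%] in rFibcd1 diaphragm (all lower), 27 [48.3%] in tibialis anterior (25 lower), 21 [31.2%] in soleus (20 lower), 37 [44.7%] for diaphragm against soleus (all higher) and 1 [18.3%] for the effect in diaphragm against tibialis anterior, with medians of -0.18, -0.18, -0.26 and -0.33 in the 4 melanoma comparisons. In tibialis anterior the number of positive members went from 22 to 3 with median-ratio scaling and to 6 without mitochondrially encoded genes. Among the genes of the naming rule, those that turned and were called on either side were Ndufaf3 (-0.31), Ndufaf4 (-0.30) and Ndufs3 (-0.45) with median-ratio scaling, Ndufs3 (-0.21) without mitochondrially encoded genes, and, with median-ratio scaling and without the library of low mitochondrial share, Ndufaf1 (-0.22), Ndufaf3 (-0.31), Ndufaf4 (-0.29), Ndufs3 (-0.35) and Ndufa4 (-0.21), where 38 members [42.2%] were called and the median was -0.38. As deposited and without the library of low mitochondrial share, Ndufs3, Ndufaf3 and Ndufaf4 were at -0.0083, 0.0078 and 0.04 in tibialis anterior. In soleus, median-ratio scaling without the library of highest Myh4 left 2 [23.2%]. Array weights gave 18 [54.7%] in mock and 0 [7.52%] in rFibcd1 diaphragm, 4 [39.9%] for rFibcd1 against mock in non-cachectic mice, 18 [69.4%] in tibialis anterior, 25 [82.1%] for soleus against tibialis anterior, and 5 [11%] and 1 [5.49%] for the effect in diaphragm against tibialis anterior and soleus. The Dunn test gave 7 [40.5%], 0 [0%] and 19 [66.1%] in mock diaphragm, rFibcd1 diaphragm and tibialis anterior, 5 [37%] for soleus against tibialis anterior and 3 [8.73%] for diaphragm against soleus. With only the groups compared in the fit, the counts were 7 [50.1%] in mock and 0 [2.61%] in rFibcd1 diaphragm, 1 [19.6%] for rFibcd1 in non-cachectic mice and 25 [85.8%] for soleus against tibialis anterior. Without a filter, 1 member [4.08%] was called in rFibcd1 diaphragm and 1 [9.89%] for the effect in tibialis anterior against soleus. Among libraries of high Pcna-ps2, 0 members [5.69%] were called in mock and 0 [0%] in rFibcd1 diaphragm. At an unadjusted p under 0.05 there were 3 and 4, with the share of all genes at that threshold not given here. Ndufa6 turned to -0.00014 in mock diaphragm among these libraries. With Pcna-ps2 as a term and median-ratio scaling, 1 [10.8%] was called in rFibcd1 diaphragm. Beyond the scalings, which change what the values are relative to, and the smaller sets of libraries, the cause of these shifts was not tested.

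Leaving out single libraries gave 2 to 8 called members in mock diaphragm (medians 0.04 to 0.09), 0 to 5 with rFibcd1 (-0.06 to 0.01), 7 to 16 in tibialis anterior (-0.05 to 0.01), 3 to 8 in soleus (-0.11 to -0.03). The counts between muscles were 29 to 36, 10 to 16 and 15 to 23 for diaphragm against tibialis anterior, soleus against tibialis anterior and diaphragm against soleus. For the effect in diaphragm against tibialis anterior they were 0 to 1 and in tibialis anterior against soleus 1 to 2, while in diaphragm against soleus the count stayed at 0, as did the rFibcd1 comparisons and their interaction. The replicate numbers of the labels could not be tied to columns, so pairing rests on the number in the column name. With that number as a replicate block (consensus correlation 0.38), 34 [76.9%], 19 [76.1%] and 24 [49.9%] members were called between muscles, and 5 [17.2%], 2 [7.36%] and 3 [41.2%] for the effect in diaphragm against tibialis anterior, diaphragm against soleus and tibialis anterior against soleus. The replicate block with median-ratio scaling gave 43 [60.7%] for soleus against tibialis anterior, and 22 [12.6%] and 20 [21%] for the effect in diaphragm against tibialis anterior and in tibialis anterior against soleus. Comparisons within 1 muscle could not be blocked because their groups share no number. Sequencing depth is unknown, so no counting error could be given for low members such as Ndufa4l2.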
